A study of Danio rerio with 30 samples.

Results

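The telencephalon of adult zebrafish 3 days after a skull injury was set against the intact telencephalon, to ask which genes differ. In the study this was the time of the earliest signs of an exacerbated reaction of glia. The members were chosen by the sample labels: 4 replicates of the skull injury at 3 days post injury (dpi) and 4 uninjured control replicates, which together make 8 of the 29 replicates in the series (9 of 30 arrays, because intact replicate 1 was hybridised to a pair of technical arrays that were averaged here). All groups hold wild-type fish that the labels give as 3 to 5 months old. In the skull injury, anaesthetised fish were stabbed from above with a small blade that crossed the skull and entered both hemispheres near the midline. In the nostril injury the tissue was stabbed with a thin capillary through the nostrils. The nostril groups enter the fit of all 9 groups, and some of their values are set beside those of the skull injury below. The intact fish had no injury, and neither a sham operation nor the number of fish behind a replicate is given in the sources used here, so a p-value here speaks of the variation among these samples alone, which may be technical.

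The adult zebrafish telencephalon is lined at its ventricle by ependymoglia, radial glia that act as neural stem cells and that express aromatase, glutamine synthetase and connexin genes. Microglia are the resident phagocytes of the brain, and they clear debris and present antigen after a wound together with monocytes that enter from the blood. Interferon response genes, such as the Mx GTPases, are switched on in many cell types by interferons and by receptors of innate immunity, and immune proteasome subunits and chemokines are among them.

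The values are log2 intensities of probe sets on an expression array, and a difference of 1 on this scale is a 2-fold change. The median over all probe sets lay between 4.22 and 4.34 in all replicates. A test was made for the 40670 probe sets, called transcripts here, with a linear group mean above 20 in at least 1 of the 9 groups, and 14372 genes with a symbol of their own are among them. A gene is said to have risen or fallen where limma gave it an adjusted p below 0.05 (Benjamini-Hochberg over the 40670 transcripts), in a fit of all 9 groups with a separate spread for each group. At 3 dpi after skull injury the spread was wider than elsewhere: the mean variance between replicates was 0.173, against 0.0895 in the intact group and 0.0732 to 0.1 in the 7 others, and the replicates correlated with one another at 0.937 to 0.962, below the 0.971 to 0.982 of the intact replicates. The telencephalic transcription factor genes *emx3*, *tbr1b*, *dlx2a* and *dlx5a* lay between 7.79 and 10.33 in every one of the 8 replicates.

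At 3 dpi after skull injury 74 named genes fell and 102 rose against the intact brain, which is 0.515% and 0.71% of the 14372 tested. The falls were small and lay in genes with a high level, with a median of −0.58 on the log2 scale (−1.17 to −0.36) and a median linear level of 520 in the intact brain. The rises were larger and lay in genes near the lower end of the scale, with a median of 1.3 (0.51 to 2.77) and a median linear level of 46.7. In 60 of the 74 and 88 of the 102 genes the 4 skull replicates lay apart from the 4 intact replicates. Over all tested genes 5.32% were lower and 3.69% higher without overlap. Counted over transcripts, 319 fell and 301 rose, 230 and 194 of them without a gene name. The criteria of the study (unadjusted p under 0.05, fold change above 1.6, linear mean above 20 in a compared group) were applied to the p-values of this fit. By them 969 were lower (2.38% of transcripts) and 823 higher (2.02%). With equal spread of all groups 1323 were lower and 924 higher by these criteria.

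The difference depended on the level of a gene. The median of all genes was 0.05 where the intact level was 5 or less on the log2 scale, −0.06 between 7 and 8, −0.14 between 9 and 10 and −0.18 above 10, as the plot of differences by intact level shows. Of the genes above 10, 18 fell and 1 rose, and of those at 5 or below, 1 fell and 36 rose. A gene with an intact mean under the filter was tested only where an injured group lay above it. The split and the median at low levels are thus in part built in. The intact mean also enters the difference, so level class and difference are not independent. The slope of the medians was present in each skull replicate. The median of the 554 genes above 10 was −0.21, −0.06, −0.25 and −0.17 in replicates 1 to 4. For genes at 5 or below it was higher, between 0.01 and 0.09. A further quantile normalization left 37 of the 74 falls and 99 of the 102 rises called (169 transcripts lower with 347 higher), and a cyclic loess normalization left 29 and 102 (135 lower with 394 higher). Each of the 74 genes kept its sign in both.

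**Figure D1:**
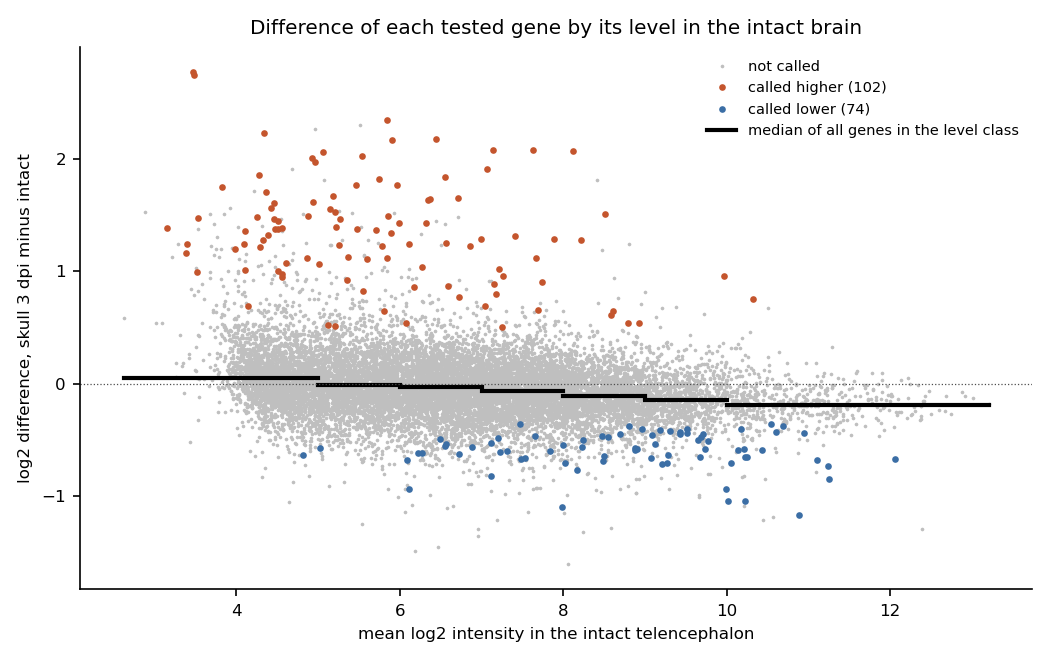
Log2 difference between skull injury at 3 dpi and intact (vertical axis) of each of the 14372 tested genes against its mean log2 intensity in the intact brain (horizontal axis), with the 102 genes that rose and the 74 that fell in colour and the median of each level class as a black line. The black line slopes from 0.05 at the lowest levels to −0.18 at the highest, where 18 of the called genes fell and 1 rose. Some genes at the lowest levels were tested only because an injured group lay above the filter.

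The replicates did not contribute equally. Among the 74 genes that fell, skull replicate 3 was the lowest of the 4 in 43 and replicate 2 the highest in 54, and the median distance to the intact mean was −0.64, −0.34, −0.75 and −0.53 in replicates 1 to 4. Among the 102 genes that rose, replicate 2 was the highest in 70 and replicate 3 the lowest in 55, with medians of 1.4, 1.83, 0.90 and 1.04. Over all 14372 tested genes, skull replicate 2 was the highest in 5502 and replicate 3 the lowest in 4659. The medians over all genes were −0.10, 0.04, −0.09 and −0.01 in replicates 1 to 4. In the called genes replicate 2 was thus nearest to the intact brain in the falls and farthest from it in the rises, and replicate 3 the reverse. This order of replicates 2 and 3 was in part shared by all genes. The calls depended on single libraries. Of the 74 falls, 3, 70, 11 and 10 were kept without skull replicates 1 to 4 and 62, 48, 7 and 20 without intact replicates 1 to 4, and of the 102 rises 9, 68, 82 and 34, and 85, 69, 30 and 75. With the 8 replicates of this comparison alone in the fit, 1 fall and 25 rises stayed called, and with equal spread for all groups all of them did. Each of the 176 genes kept its sign in these fits, but for most of them this was fixed in advance. The fits with another spread or with fewer groups leave the group means as they are. Genes without overlap also keep their sign when 1 replicate is left out.

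**Figure D2:**
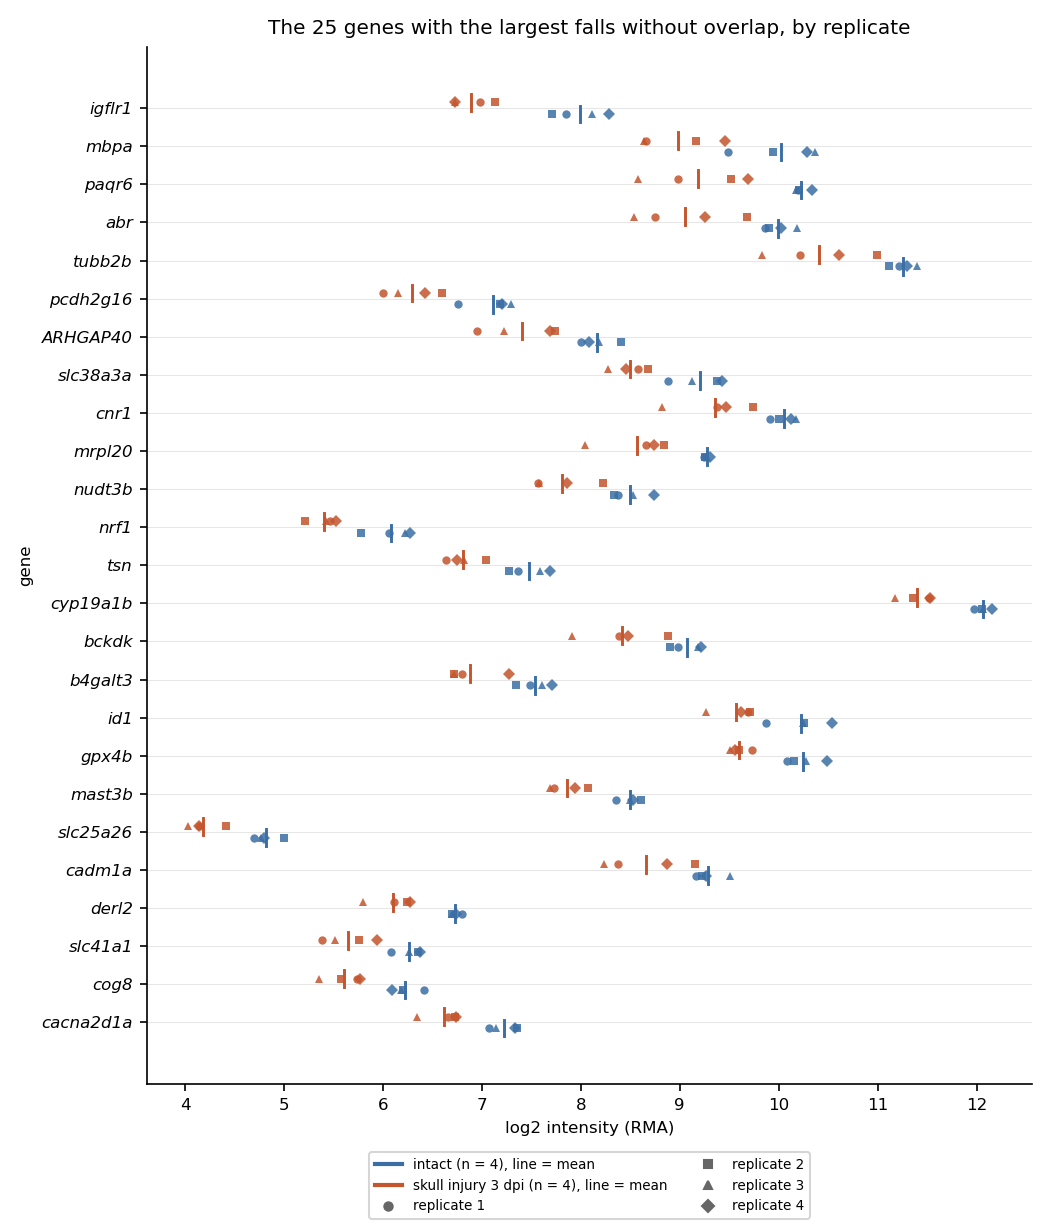
Log2 intensity (horizontal axis) of the 25 genes with the largest falls without overlap, with 1 symbol per replicate (4 intact, 4 skull injury at 3 dpi) and a vertical line at each group mean. Every skull replicate lies below every intact replicate in each gene, and replicate 2 of the skull group is often the nearest to the intact values.

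Ependymoglia genes were among the falls, led by the gap junction gene *gja1b* (connexin 43). Of 38 tested ependymoglia markers 3 fell and 0 rose by limma (0.515% and 0.71% over all genes). At an unadjusted p under 0.05, 12 were lower and 1 higher (9.77% lower and 5.34% higher over all genes). A negative difference was seen in 30 (57.9% over all genes), and the median of the 38 was −0.26 beside −0.05 over all genes. It was −0.19 after quantile and −0.17 after loess normalization, beside −0.01 and 0.01 over all genes. The 3 that fell had an intact level above 10, where the median of all genes was −0.18. *gja1b* measured 10.47, 10.74, 11.05 and 11.27 in the intact and 9.40, 10.59, 8.98 and 9.88 in the skull replicates. It was at 44.4% of the intact level (−1.17, SE 0.25, n = 4 against 4, adjusted p = 0.022), although skull replicate 2 lay inside the intact range. The aromatase gene *cyp19a1b*, which makes estradiol and in fish is expressed by radial glia, measured 11.98, 12.06, 12.07 and 12.15 against 11.52, 11.36, 11.18 and 11.53. The groups did not overlap, and *cyp19a1b* fell by 0.67 (SE 0.13, adjusted p = 0.012). *id1*, an inhibitor of basic helix-loop-helix transcription factors that responds to BMP signals, measured 9.88, 10.25, 10.24 and 10.54 against 9.69, 9.71, 9.26 and 9.62 and fell by 0.65 (SE 0.16, adjusted p = 0.043).

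Other genes of these cells did not pass the test. Both glutamine synthetase genes lay below the intact range in every skull replicate: *glula* measured 10.72, 10.92, 10.74 and 11.11 against 10.42, 10.43, 9.97 and 10.22 (−0.61, adjusted p = 0.059), and *glulb*, chosen after its values were seen like *ptgdsb.1* and *atp1a1b*, had a difference of −0.72 (adjusted p = 0.12). The prostaglandin D synthase gene *ptgdsb.1* was at −1.21 (adjusted p = 0.087) and the sodium pump gene *atp1a1b* at −0.55 (adjusted p = 0.11). The intermediate filament gene *gfap* went the other way by 0.15 (adjusted p = 0.84), with 7.55, 7.86, 7.81 and 8.18 against 7.79, 8.64, 7.52 and 8.04, and *s100b* was at 0.15 and the lipid binding gene *fabp7a* at −0.27. Summed over the 38 markers the linear level was 31780, 32250, 25230 and 31540 in the skull replicates and 35330 to 45200 in the intact ones. This sum is weighted towards the brightest probe sets, and 8 of the 38 markers had a positive difference. In these bulk samples, fewer cells of a type and less RNA per cell cannot be told apart. All 3 calls were lost without skull replicate 1, 3, 1 and 1 were kept without skull replicates 2, 3 and 4, and 3, 2, 1 and 1 without intact replicates 1 to 4. After quantile or loess normalization 2 were kept, and *id1* was not (adjusted p = 0.081 and 0.084). Neuropeptide genes of the preoptic area and hypothalamus, which border the telencephalon, were lower in sum as well, 5595 to 10310 against 10540 to 16490 over 15 genes with 0 called (2 lower at an unadjusted p under 0.05). This sum too is weighted towards the brightest probe sets. The median of the 15 was −0.16, and 5 of them had a positive difference. Over all genes 9.77% were lower at an unadjusted p under 0.05. *oxt* measured 11.91, 12.34, 12.40 and 12.92 against 11.41, 9.29, 11.49 and 12.23 (−1.29, adjusted p = 0.637), and *avp* 10.20, 10.18, 10.24 and 11.68 against 9.77, 7.51, 10.25 and 10.03 (−1.18, adjusted p = 0.592), both chosen after their values were seen. Skull replicate 2 was far below the rest in both, and the part of tissue boundaries in the results was not tested.

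Among the myelin genes, 1 of 14 fell (0.515% over all genes), *mbpa*, a myelin basic protein gene. It measured 9.49, 9.94, 10.37 and 10.28 in the intact and 8.66, 9.16, 8.63 and 9.46 in the skull replicates, that is 48.6% of the intact level (−1.04, SE 0.25, adjusted p = 0.037). The highest skull replicate lay just below the lowest intact one. Without adjustment 2 of the 14 passed a p of 0.05 on the lower and 2 on the higher side (9.77% and 5.34% over all genes). Besides *mbpa*, the tetraspanin gene *tspan7* was lower without overlap (5.32% over all genes), at −0.28 (adjusted p = 0.097). Of the others, the second myelin basic protein gene *mbpb* was at 0.15 (adjusted p = 0.70), the myelin-associated glycoprotein gene *mag* at 0.16 (adjusted p = 0.68) and the myelin claudin gene *cldnk* at 0.62 (adjusted p = 0.29), all 4 of these chosen after their values were seen. The list's median was 0.07, with 7 of 14 genes below 0. Markers of oligodendrocyte progenitors gave 0 calls among 14 by limma and 0 at an unadjusted p under 0.05 in either direction, with a median of 0.09. *olig2*, which marks this lineage, measured 8.58, 8.02, 8.77 and 8.49 against 8.16, 9.03, 8.47 and 8.81 (0.15, adjusted p = 0.74), with skull replicates 2 and 4 above and replicates 1 and 3 within the intact range, and *sox10* was at 0.23 (adjusted p = 0.59). The *mbpa* call was lost without any one of skull replicates 1, 3 and 4 or intact replicates 2, 3 and 4 (adjusted p up to 0.19), and after quantile or loess normalization (adjusted p = 0.058 in both).

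A group of 9 genes that fell is put together here by their known roles in neuronal signalling and adhesion, after their values were seen and without a list of its own. *cnr1*, the cannabinoid receptor CB1, damps transmitter release. It measured 9.913, 10.001, 10.178 and 10.119 in the intact and 9.378, 9.741, 8.819 and 9.472 in the skull replicates and was at 61.5% of the intact level (−0.70, SE 0.14, adjusted p = 0.018). The muscarinic acetylcholine receptor gene *chrm4a* measured 8.11, 7.89, 7.98 and 8.11 against 7.06, 8.02, 7.12 and 7.07 and fell by 0.70 (adjusted p = 0.039). Here 3 skull replicates lay close together and well below the intact range, and replicate 2 lay within it. *gabrz*, which encodes a subunit of the GABA receptor, measured 8.82, 8.93, 8.93 and 8.83 against 8.16, 8.43, 8.29 and 8.27 (−0.59, SE 0.15, adjusted p = 0.046), with both groups narrow and apart.

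Of the calcium machinery, the channel subunit gene *cacna2d1a* fell by 0.61 (adjusted p = 0.046), the kinase gene *camk2b2* by 0.58 (adjusted p = 0.046) and the calcineurin regulatory subunit gene *ppp3r1b* by 0.65 (adjusted p = 0.045). *ppp3r1b* measured 9.72, 9.41, 9.99 and 9.56 against 8.70, 9.52, 8.69 and 9.16, again with skull replicate 2 inside the intact range. The synaptic adhesion gene *cadm1a* fell by 0.63 (adjusted p = 0.029), the clustered protocadherin gene *pcdh2g16* by 0.82 (SE 0.19, adjusted p = 0.031) and the vesicle protein gene *caly* by 0.37 (adjusted p = 0.033). The second probe set of *pcdh2g16* was at −0.28 (adjusted p = 0.41). *chrm4a*, *camk2b2*, *ppp3r1b* and *caly* were chosen after their values were seen. Of these 9 calls, 0, 9, 0 and 1 were kept without skull replicates 1 to 4 and 7, 4, 0 and 2 without intact replicates 1 to 4, and 4 after a further quantile normalization.

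The lists of neuronal genes as wholes had few calls and small medians. Of 43 sodium and calcium channel genes 1 fell, with 10 lower and 1 higher at an unadjusted p under 0.05. Of 23 GABA and glycine receptor genes 1 fell. Over all genes 0.515% fell. By limma 0 of 59 synaptic vesicle genes, 0 of 26 pan-neuronal markers and 0 of 84 axon guidance genes passed. Of these, 11, 5 and 17 were lower and 2, 3 and 1 higher at an unadjusted p under 0.05. Their medians were −0.12, −0.03 and −0.15, and that of the pan-neuronal markers turned to 0.04 after quantile and 0.07 after loess normalization. Over all genes 9.77% were lower and 5.34% higher at an unadjusted p under 0.05. In the channel, vesicle, pan-neuronal and axon guidance lists the share lower was above that of all genes. Among the pan-neuronal markers the share higher was above it as well. Of the GABA and glycine receptor genes 2 were lower and 0 higher, both below the shares of all genes. A gene that did not pass may still have changed. *elavl3*, which marks neurons, measured 11.235, 11.303, 11.353 and 11.316 against 10.792, 11.369, 10.643 and 11.203 (−0.30, adjusted p = 0.17). At a second probe set it was at −0.17. The neurofilament gene *nefla* was on the other side of 0, at 1.17 (SE 0.31, adjusted p = 0.058).

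Among genes of the cytoskeleton, *tubb2b*, a beta tubulin of neurons, fell by 0.84 (SE 0.16, adjusted p = 0.012). It measured 11.22, 11.11, 11.39 and 11.29 in the intact and 10.21, 10.99, 9.83 and 10.60 in the skull replicates, and so was at 55.7% of the intact level. The alpha tubulin gene *tuba1c*, chosen after its values were seen, measured 11.08, 11.04, 11.22 and 11.06 against 10.05, 11.06, 9.96 and 10.65 and fell by 0.67 (adjusted p = 0.039). In both genes replicates 1 and 3 were lowest and replicate 2 was at or near the intact level. Of 13 tested alpha and beta tubulin genes, a family looked at after these values were seen, these 2 fell and 0 rose (0.515% and 0.71% over all genes). A negative difference was seen in 11 of the 13 (57.9% over all genes). Of these 2 calls, 0, 2, 1 and 1 were kept without skull replicates 1 to 4 and 2, 2, 1 and 1 without intact replicates 1 to 4, and 1 after quantile or loess normalization.

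The falls with the smallest adjusted p were those of *gpx4b* and *mrpl20*. *mrpl20*, a protein of the mitochondrial ribosome, measured 9.24, 9.25, 9.28 and 9.31 in the intact replicates, and 8.66, 8.84, 8.04 and 8.74 in the skull replicates (−0.70, SE 0.13, adjusted p = 0.0093). Its second probe set was at −0.74 (adjusted p = 0.024). *gpx4b*, a glutathione peroxidase that reduces lipid peroxides, measured 10.08, 10.16, 10.28 and 10.49 against 9.73, 9.60, 9.50 and 9.56 and fell by 0.65 (SE 0.11, adjusted p = 0.0052), to 63.6% of the intact level. These 2 genes passed in each of the 8 fits that left out 1 replicate. The respiratory chain was tested with 80 genes, of which 2 were higher and 18 lower at an unadjusted p under 0.05. By limma 4 of the 80 fell and 0 rose (0.515% and 0.71% over all genes). These were *ndufs5* by 0.51, *ndufs3* by 0.45 and *ndufa4a* by 0.44, first described as complex I subunits, and *cyc1*, the cytochrome c1 of complex III, by 0.38 (adjusted p = 0.016 to 0.032). *ndufs5* measured 9.82, 9.69, 9.67 and 9.89 against 9.18, 9.39, 9.04 and 9.43, apart in every replicate.

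The median of the 80 respiratory chain genes was −0.08, close to the −0.05 of all genes, and turned to 0.02 after loess normalization. The 18 of 80 that were lower at an unadjusted p under 0.05 stand beside 9.77% over all genes. Below 0 lay 63 of 80 (57.9% over all genes), with 42 after quantile and 36 after loess normalization. Further mitochondrial falls were those of *slc25a26*, the carrier of S-adenosylmethionine, by 0.64 (adjusted p = 0.037), of *bckdk*, a kinase that restrains the breakdown of branched-chain amino acids, by 0.66 (adjusted p = 0.033), and of the ATP synthase gene *atp5mc3b*, by 0.58 (adjusted p = 0.034; second probe set at −0.35, adjusted p = 0.088). *prdx2*, a peroxiredoxin, measured 10.36, 10.34, 10.51 and 10.53 against 9.98, 10.44, 9.13 and 9.86 (−0.59, adjusted p = 0.043), where skull replicate 3 was the lowest and replicate 2 lay in the intact range. The last 2 genes were chosen after their values were seen. Of these 10 mitochondrial and redox calls, 2, 10, 4 and 3 were kept without skull replicates 1 to 4 and 10, 9, 3 and 3 without intact replicates 1 to 4, 8 after quantile and 4 after loess normalization. Genes of cytosolic ribosomal proteins showed 1 fall among 66 (0.515% over all genes), that of *rpl8* by 0.36 (SE 0.09, adjusted p = 0.049, and 0.09 after quantile and 0.1 after loess normalization). At an unadjusted p under 0.05, 33 of 66 were lower and 0 higher (9.77% and 5.34% over all genes). Below 0 lay 61 of 66 (57.9% over all genes), with a median of −0.19 (48 and −0.09 after quantile, 46 and −0.07 after loess normalization). That median was near the −0.18 of all genes with an intact level above 10. The summed level of the ribosomal protein genes was 157500 to 188100 in the skull and 192700 to 211200 in the intact replicates.

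A further 7 genes that fell act in transport or the secretory pathway, a grouping made after their values were seen. *slc38a3a*, a transporter of glutamine and related amino acids, measured 8.88, 9.38, 9.13 and 9.43 in the intact and 8.57, 8.68, 8.28 and 8.46 in the skull replicates (−0.71, SE 0.17, adjusted p = 0.034). It was the single call in a chosen list of 62 solute carrier genes with a median of −0.24 (0.515% of all genes fell). That list leaves out *slc41a1*, *slc25a26* and *slc35e1*, which fell as well, and *slc3a2a*, which rose by 0.79. Of the 62, 51 lay below 0 (57.9% over all genes). At an unadjusted p under 0.05, 15 were lower and 1 higher (9.77% and 5.34% over all genes). The magnesium transporter gene *slc41a1* fell by 0.62 (adjusted p = 0.0498), the lysosomal membrane gene *laptm4b* by 0.58 (adjusted p = 0.029) and *bsg*, the chaperone of lactate transporters, chosen after its values were seen, by 0.44 (adjusted p = 0.049). Of the endoplasmic reticulum and Golgi genes, *derl2*, which acts in the disposal of misfolded proteins, measured 6.80, 6.70, 6.69 and 6.74 against 6.11, 6.24, 5.8 and 6.27 (−0.63, SE 0.13, adjusted p = 0.020). The galactosyltransferase gene *b4galt3* fell by 0.66 (adjusted p = 0.031) and *cog8*, a tether of Golgi vesicles, by 0.61 (adjusted p = 0.043). Of these 7 calls, 0, 5, 0 and 2 were kept without skull replicates 1 to 4 and 6, 4, 0 and 1 without intact replicates 1 to 4, and 2 after quantile or loess normalization.

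The remaining large falls were of several kinds. *igflr1*, a receptor of insulin growth factor-like peptides, measured 7.85, 7.71, 8.11 and 8.29 against 6.98, 7.13, 6.73 and 6.73 and was at 46.8% of the intact level (−1.10, SE 0.23, adjusted p = 0.022). It was the 1 gene of the 74 that also passed when the 2 groups were fitted alone (adjusted p = 0.045). *paqr6*, a membrane receptor of progestins, measured 10.19, 10.20, 10.18 and 10.34 against 8.98, 9.51, 8.57 and 9.69 (−1.04, SE 0.21, adjusted p = 0.018), a narrow group above a wide one. The transcription factor gene *nrf1*, a regulator of mitochondrial genes, fell by 0.68 (adjusted p = 0.035), the nucleic acid binding gene *tsn* by 0.67 (SE 0.13, adjusted p = 0.015), the phosphatase gene *nudt3b* by 0.68 (adjusted p = 0.049) and the kinase gene *mast3b* by 0.64 (adjusted p = 0.037). *tsn* measured 7.37, 7.27, 7.59 and 7.69 against 6.64, 7.04, 6.82 and 6.74, with all skull replicates below the intact ones. *abr* measured 9.86, 9.90, 10.19 and 10.02 against 8.75, 9.68, 8.53 and 9.25 (−0.94, SE 0.22, adjusted p = 0.033), with skull replicate 2 nearest to the intact values. With *rpl8*, these are 8 calls, of which 0, 7, 1 and 1 were kept without skull replicates 1 to 4 and 7, 6, 0 and 2 without intact replicates 1 to 4.

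Cholesterol biosynthesis genes stood out by their median, −0.56 over 27 genes, 25 of them below 0 (57.9% over all genes). Yet 0 passed the test by limma, with 8 lower at an unadjusted p under 0.05 (9.77% over all genes). The intact replicates differed widely among themselves. *hmgcs1*, an early enzyme of the pathway, measured 9.12, 8.07, 6.57 and 6.51 in intact replicates 1 to 4 and 6.58, 6.37, 6.18 and 6.58 in the skull replicates, and *sqlea*, the squalene epoxidase, 8.47, 7.38, 4.60 and 4.29 against 5.25, 4.28, 4.39 and 4.88. Intact replicates 1 and 2 were high and intact replicates 3 and 4 lay at the level of the injured brain. The summed level over the list was 8290, 5287, 3320 and 3547 against 3040, 2861, 2568 and 3417. *idi1* (−0.85, adjusted p = 0.084) and *ebp* (−1.24, adjusted p = 0.16) were below the intact range in every skull replicate. All 4 were chosen after their values were seen. In contrast, the 34 Notch and *her* genes were low by little, with a median of −0.19, 0 calls by limma and 3298 to 3711 in sum against 3722 to 4686. At an unadjusted p under 0.05, 5 were lower and 1 higher (9.77% and 5.34% over all genes). *her4.1*, a Notch target of ependymoglia, measured 8.47, 8.74, 8.78 and 8.89 against 8.53, 7.45, 8.70 and 7.80 (−0.60, adjusted p = 0.26), with skull replicates 2 and 4 low and replicates 1 and 3 within the intact range.

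**Figure D3:**
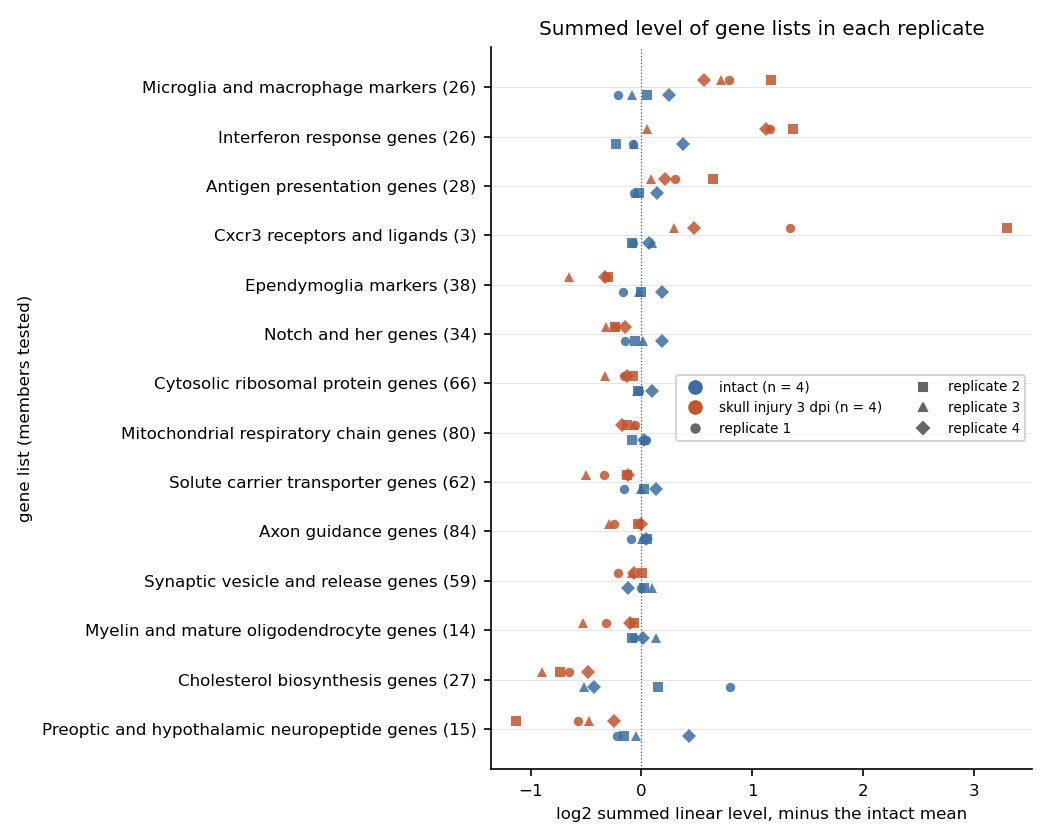
Summed linear level of the tested members of 14 gene lists in each replicate, as log2 minus the mean of the 4 intact replicates (horizontal axis), with the number of tested members in parentheses. Each sum is weighted towards the brightest probe sets. Ependymoglia markers (25230 to 32250 against 35330 to 45200) and neuropeptide genes lie lower in all skull replicates, microglia markers (8458 to 12810 against 4944 to 6767) higher, the interferon response is at the intact level in skull replicate 3, and the cholesterol genes are high in intact replicates 1 and 2.

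On the side of the rises, markers of microglia and macrophages gave the most calls of the 41 lists. Of 26 tested, 9 rose and 0 fell (0.71% and 0.515% over all genes), and the median was 1.05. Without adjustment 22 passed a p of 0.05 on the higher and 1 on the lower side (5.34% and 9.77% over all genes). *laptm5*, a lysosomal protein of leukocytes, measured 6.72, 7.16, 7.08 and 7.31 in the intact and 8.88, 9.32, 8.80 and 8.91 in the skull replicates, a rise of 1.91 (SE 0.27, adjusted p = 0.0012) with similar levels in all 4. *spi1b*, the transcription factor PU.1 of myeloid cells, measured 5.07, 5.17, 5.11 and 5.24 against 6.5, 7.18, 6.57 and 6.55 (1.55, SE 0.27, adjusted p = 0.0069). Both passed in each of the 8 fits that left out 1 replicate. The integrin gene *itgb2* rose by 1.43, the pore-forming protein gene *mpeg1.1* by 1.63, the complement gene *c1qa* by 1.38 and the receptor gene *csf1ra*, which microglia need to survive, by 1.11 (adjusted p = 0.018 to 0.040).

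Further genes rose as well, many of them genes of phagocytes and lysosomes. *mfap4.2*, of a family that marks zebrafish macrophages, measured 7.24, 7.40, 7.27 and 8.63 against 10.06, 9.95, 9.15 and 9.70 (2.08, SE 0.44, adjusted p = 0.022), and the scavenger receptor gene *MARCO* 4.44, 5.05, 4.49 and 5.86 against 7.43, 7.09, 6.24 and 6.95 (1.97, SE 0.39, adjusted p = 0.016). In both, intact replicate 4 was the highest of the intact group and still below every skull replicate. The granulin gene *grna.1* rose by 2.16, the tetraspanin gene *tspan36* by 2.06, the cathepsin K gene *ctsk* by 1.49, the phosphatase gene *ptpn6*, which restrains immune receptors, by 1.82, the galectin gene *lgals9l1* by 2.08 and the secreted protein gene *c1ql1* by 2.34. The smaller of 2 probe sets of *ptpn6* was at 0.72 (adjusted p = 0.29). Together with *havcr1*, *cd74a*, *lgals3bp.1* and the chemokine gene *ccl34b.1*, which rose by 1.77, 0.76, 2.07 and 0.95, these are 18 calls, of which 3, 14, 17 and 7 were kept without skull replicates 1 to 4, 17, 17, 5 and 18 without intact replicates 1 to 4, and 18 after quantile or loess normalization. *mpeg1.1*, *csf1ra*, *havcr1* and *cd74a* were chosen after their values were seen. Markers of other blood cells gave fewer calls: 1 of 10 for neutrophils (*mmp9*, a matrix protease that macrophages also make; 3 higher at an unadjusted p under 0.05), 0 of 7 for T and NK cells and 0 of 13 for red blood cells. Over all genes 0.71% rose, and 5.34% were higher at an unadjusted p under 0.05. The neutrophil peroxidase gene *mpx* was at 0.20 (adjusted p = 0.74) and the lysozyme gene *lyz* at 0.88 (adjusted p = 0.58).

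**Figure D4:**
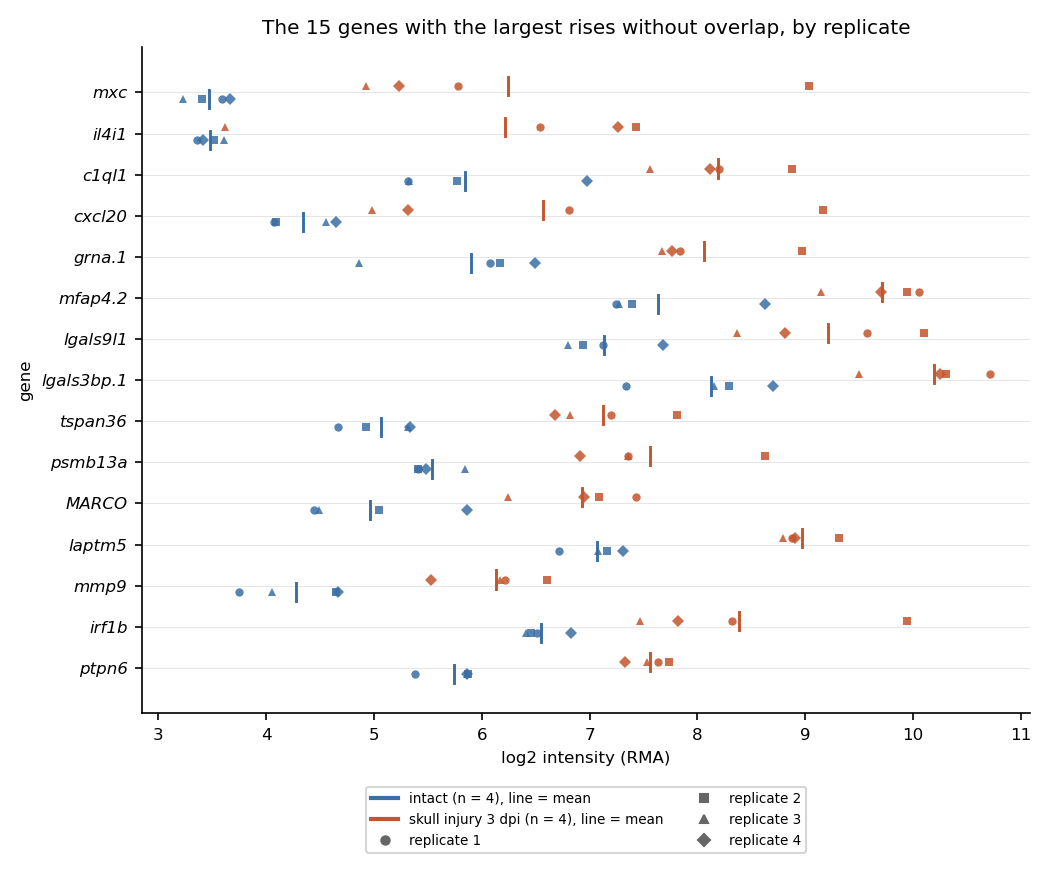
Log2 intensity (horizontal axis) of the 15 genes with the largest rises without overlap, with 1 symbol per replicate (4 intact, 4 skull injury at 3 dpi) and a vertical line at each group mean. The skull replicates of *laptm5* lie within 8.80 to 9.32, whereas those of *mxc* spread from 4.93 to 9.03 and replicate 3 of *il4i1* is at the intact level.

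The interferon response differed between the replicates. Of 26 tested genes 6 rose and 0 fell (0.71% and 0.515% over all genes), and the median was 1.00. An unadjusted p of 0.05 was passed by 18 on the higher side (5.34% over all genes). *mxc*, an Mx GTPase with antiviral action, had the largest rise of all named genes with all replicates in, with 3.59, 3.40, 3.22 and 3.67 in the intact and 5.78, 9.03, 4.93 and 5.23 in the skull replicates (2.77, SE 0.61, adjusted p = 0.025). *irf7*, a transcription factor that drives interferon genes, measured 4.14, 4.68, 4.96 and 5.92 against 8.17, 7.12, 4.98 and 7.46 (2.01, SE 0.50, adjusted p = 0.043), and *mxa* 4.15, 4.26, 4.69 and 4.32 against 7.11, 5.64, 4.66 and 6.82 (1.70, SE 0.35, adjusted p = 0.018). Without skull replicate 2 *mxc* was at 1.84, below *il4i1* at 2.33. Replicate 2 was highest in *mxc*, replicate 1 in *irf7* and *mxa*, and replicate 3 was inside the intact range in the last 2. Genes of the Mx and tubulin families resemble one another in sequence, and how far their probes cross-react was not tested. Summed over the 26 interferon response genes, the skull replicates reached 3279, 3785, 1520 and 3198, and the intact ones 1254 to 1901, so that replicate 3 did not stand apart from the intact brain. Of the 26 genes, 0, 3, 12 and 1 rose without skull replicates 1 to 4 and 5, 3, 1 and 5 without intact replicates 1 to 4 (14 higher at an unadjusted p under 0.05 where 0 rose by limma).

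*irf1b* rose by 1.84 (6.51, 6.46, 6.41 and 6.83 against 8.32, 9.95, 7.47 and 7.82, adjusted p = 0.027), the apoptosis factor gene *xaf1* by 1.32 and the cytokine signal inhibitor gene *socs1a* by 1.08. *isg15*, a ubiquitin-like protein that interferon induces, measured 4.59, 4.69, 4.88 and 6.15 against 8.1, 6.86, 4.72 and 7.87 and did not pass (1.81, SE 0.70, adjusted p = 0.19), nor did *mxe* (0.94, adjusted p = 0.17). The chemokine gene *cxcl20* was carried by replicate 2, with 4.08, 4.09, 4.55 and 4.64 against 6.81, 9.17, 4.99 and 5.32 (2.23, SE 0.56, adjusted p = 0.046). *il4i1*, an amino acid oxidase of immune cells, measured 3.36, 3.52, 3.61 and 3.42 against 6.54, 7.43, 3.62 and 7.27 (2.74, SE 0.58, adjusted p = 0.022), a split of 3 raised replicates and 1 at the level of the intact brain. The receptor gene *cxcr3.2* was at 0.50 (adjusted p = 0.29) and *cxcr3.3* at 0.12 (adjusted p = 0.87).

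Genes of antigen presentation rose as well. Of 28 tested, 7 rose and 0 fell (0.71% and 0.515% over all genes), with a median of 0.41. At an unadjusted p under 0.05, 13 were higher (5.34% over all genes). The proteasome activator gene *psme1* measured 6.28, 6.17, 6.47 and 6.55 in the intact and 8.21, 8.50, 7.59 and 7.74 in the skull replicates (1.64, SE 0.25, adjusted p = 0.0022), the thiol reductase gene *ifi30a* rose by 1.65 (adjusted p = 0.0044), the immune proteasome gene *psmb13a* by 2.03 (SE 0.40, adjusted p = 0.016) and the peptidase gene *erap1b* by 0.82 (adjusted p = 0.027). Of the 12 calls named for the interferon response and antigen presentation, with *il4i1* and *cxcl20*, 2, 7, 12 and 4 were kept without skull replicates 1 to 4 and 10, 8, 4 and 9 without intact replicates 1 to 4. *socs1a* and *isg15* were chosen after their values were seen.

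Of 13 Toll-like receptor and adaptor genes 2 rose and 0 fell (0.71% and 0.515% over all genes). Both that rose encode receptors of nucleic acids inside the cell. At an unadjusted p under 0.05, 3 were higher and 0 lower (5.34% and 9.77% over all genes). *tlr21* measured 4.17, 3.91, 3.49 and 3.69 against 5.84, 6.51, 4.14 and 5.75 (1.74, SE 0.36, adjusted p = 0.020) and *tlr8b* 4.5, 4.26, 4.28 and 5.01 against 5.64, 6.37, 6.07 and 5.46 (1.37, SE 0.32, adjusted p = 0.032). *tlr21* in replicate 3 reached into the intact range. *mmp9* measured 3.75, 4.65, 4.05 and 4.67 against 6.22, 6.61, 6.17 and 5.53 (1.85, SE 0.42, adjusted p = 0.028), and *pecam1a*, an adhesion molecule of endothelium and leukocytes, rose by 1.76 as the 1 call among 30 endothelial and mural markers. Of these 4 calls, 0, 3, 2 and 1 were kept without skull replicates 1 to 4 and 4, 3, 0 and 4 without intact replicates 1 to 4. Of 18 genes looked up because the study names them, 10 were tested under their own symbol. Not tested under these symbols were *irf2*, *cxcl11.1*, *cxcl11.5*, *cxcl11.6*, *cxcl13*, *cstb*, *tlr2* and *cxcr3.1*. Of those tested, *mxc*, *mxe*, *irf7*, *ptpn6*, *c1qa*, *mmp9*, *cxcr3.2* and *cxcr3.3* are given above. *c1qb* was at 1.1 (4.59, 4.92, 4.54 and 4.65 against 5.77, 5.93, 5.72 and 5.69, adjusted p = 0.11) and the fibrinogen gene *fga* at 0.69 (adjusted p = 0.24). Proliferation genes gave 0 calls among 53 by limma, with a median of 0.16. At an unadjusted p under 0.05, 5 were higher (5.34% over all genes).

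The genes that fell were set beside the other times and the nostril injury. Since the 74 genes were chosen on these skull and intact samples, their values there are a description. Against the same intact samples their median difference was 0.02, −0.04, −0.58 and −0.11 at 1, 2, 3 and 7 dpi after skull injury and 0.01, −0.06, −0.03 and −0.14 after nostril injury, where 0 of the 74 fell at 3 dpi (0% of all named genes by limma, with 7 of the 74 lower at an unadjusted p under 0.05). The direct contrasts with nostril injury and with 7 dpi leave the intact samples out but use the same skull replicates that chose the 74 genes, so a high share of lower genes is in part built in and nothing is read from it. In these, 26 of the 74 were lower after skull than after nostril injury at 3 dpi (0.292% of all named genes, 42 of 14372), and 38 were lower at 3 than at 7 dpi after skull injury (5.01% of all, 720). *gja1b* differed from nostril injury by −1.12 (SE 0.25, adjusted p = 0.048) and from 7 dpi by −1.02 (adjusted p = 0.025), *cnr1* by −0.68 and −0.85, *tsn* by −0.69 and −0.83 and *tubb2b* by −0.76 and −0.65 (adjusted p = 0.0051 to 0.046). The difference of *cyp19a1b* from nostril injury, −0.54, had an adjusted p of 0.0531, and from 7 dpi, −0.54, of 0.021. At 7 dpi 5 of the 74 were below intact too (0.703% of all named genes). This share is in part built in, because the same intact samples chose the 74 genes. Among the 5 were *id1* by 0.58, *mrpl20* by 0.43 and *gpx4b* by 0.37 (adjusted p = 0.0265 to 0.0309). These counts come from the fit of all 9 groups. With the compared groups alone, limma gave 0 calls in both contrasts (1072 and 1646 genes lower at an unadjusted p under 0.05), and leaving out single replicates moved the 42 to between 0 (without nostril replicate 3, skull 3 dpi replicate 1 or skull 3 dpi replicate 4, with 1409, 1172 and 1558 at an unadjusted p under 0.05) and 389 (without skull 3 dpi replicate 2) and the 720 to between 1 (without skull 3 dpi replicate 1) and 1144 (without skull 3 dpi replicate 2). The 42 were also 2 without skull 3 dpi replicate 3, and 3 and 69 without nostril replicates 1 and 2, and the 720 were 132 and 440 without skull 3 dpi replicates 3 and 4, and 227 and 177 without 7 dpi replicates 2 and 3.

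The 102 genes that rose had a positive median in every injured group. It was 0.78, 0.87, 1.3 and 0.38 at 1, 2, 3 and 7 dpi after skull injury and 0.52, 0.80, 0.61 and 0.17 after nostril injury, again against shared intact samples. Of the 102, 14 rose after nostril injury at 3 dpi (0.195% of all named genes) and 6 at 7 dpi after skull injury (2.27%). These shares are in part built in, because the same intact samples chose the 102 genes. The 102 genes too were chosen on the skull replicates that enter the next contrasts. At 3 dpi 5 of the 102 were higher after skull than after nostril injury (0.0348% of all named genes, 5 of 14372). *mxc* was at 2.64 in this contrast, *il4i1* at 2.52 and *cxcl20* at 2.41, with adjusted p = 0.0531 to 0.0537, and *tspan36* at 0.17 and *ctsk* at −0.01. Between 3 and 7 dpi after skull injury 41 of the 102 were higher at 3 dpi (0.807% of all, 116), among them *laptm5* by 1.59 and *psmb13a* by 2.07. By limma the count of 116 was 0 without skull 3 dpi replicate 1 (500 at an unadjusted p under 0.05), 48 and 76 without replicates 3 and 4, and 145, 25 and 16 without 7 dpi replicates 1 to 3.

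**Figure D5:**
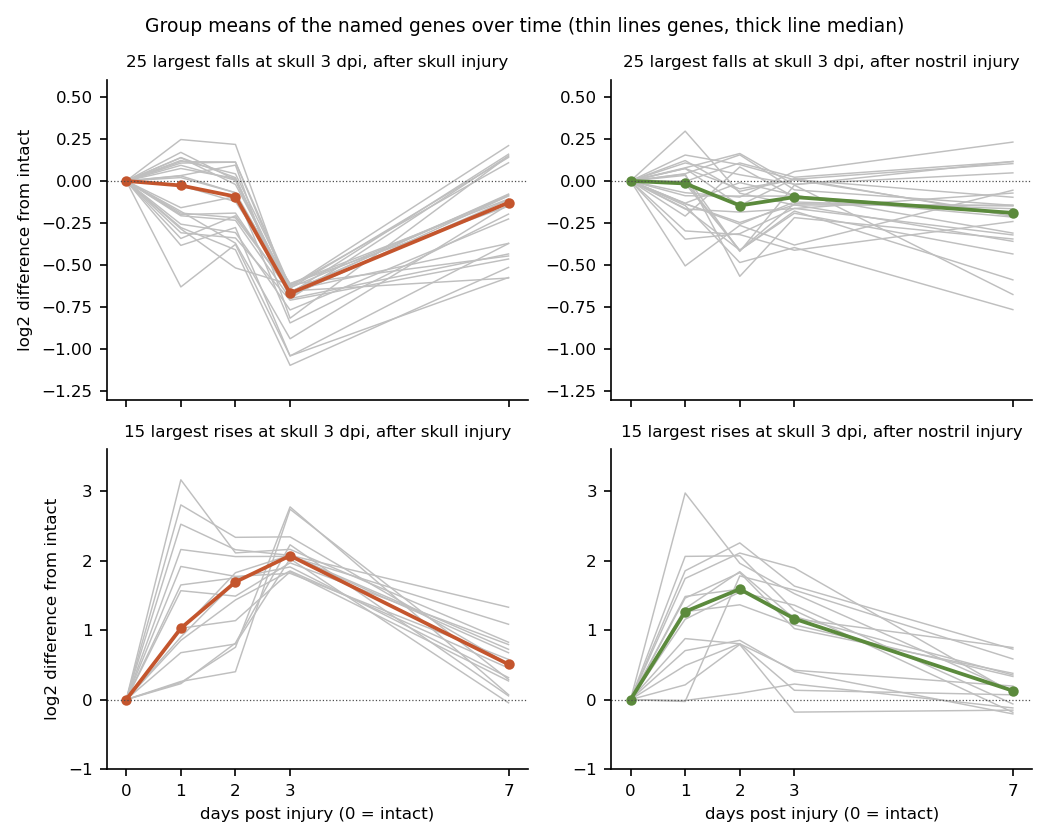
Difference of the group mean from intact on the log2 scale (vertical axis) over days post injury (horizontal axis) for the 25 largest falls and the 15 largest rises at skull 3 dpi, after skull and after nostril injury, with 1 thin line per gene and a thick line for the median. The falls dip at 3 dpi after skull injury, the time at which they were chosen, and the rises are also raised at other times and after nostril injury.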

How the data were processed

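Whole telencephali were measured on Affymetrix Zebrafish Gene 1.0 ST arrays after amplification of the RNA. Per the labels and the study's methods, the authors deposited log2 intensities from RMA (background correction, quantile normalization and median polish) made with Affymetrix Expression Console 1.3. The deposited values give no count depth, and the number of arrays limits the precision. The members and all 41 gene lists were chosen with earlier results of these data known. Both technical arrays of intact replicate 1 were averaged. In limma 3.58.1 under R 4.3.3 a mean was fitted for each of 9 groups (29 replicates) with a variance factor per group, on the probe sets with a linear group mean above 20, and p-values were adjusted by Benjamini-Hochberg. A gene is represented by its probe set with the highest mean among those with exactly 1 symbol (20806 of 75212 probe sets; 855 with several symbols were not named), with symbols from the platform annotation. Named were the 25 largest falls and 15 largest rises without overlap (1 symbol without a descriptive name passed over on each side), leading called members of each list, cell type markers and 18 genes that the study names; others are said to be chosen after their values were seen. A result that needs a withheld item is not reported here. The procedure was tested on simulated data, where it called 48.2% of the 2-fold and 88.8% of the 4-fold changes. A gene without a call may thus have changed. Plots were drawn with Python 3.11.15 and matplotlib 3.10.9. Alternatives changed the spread model, the samples in the fit, the normalization, the technical array, the moderation, the filter, the threshold, the probe set per gene, a replicate block and each replicate in turn.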

Additional observations from a re-analysis of the deposited data

Results flagged for a closer look

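Among 113 genes described, 226 groups of 4 replicates were searched for a replicate far from the other 3 by Dixon's criterion, which chance meets in about 1 in 20 groups, and 18 met it. Intact replicate 4 made up 7 of them: it was high in *paqr6* (10.34), *mfap4.2* (8.63), *ctsk* (6.35), *tbr1b* (9.93), *lyz* (8.23) and *avp* (11.68), and low in *nefla* (3.78). Skull replicate 2 made up 4, all high, in *grna.1* (8.97), *spi1b* (7.18), *cxcr3.2* (5.38) and *chrm4a* (8.02). The other 7 were intact replicate 1 in *ptpn6* (5.38) and *pecam1a* (5.57), intact replicate 2 in *emx3* (8.04), intact replicate 3 in *c1qa* (4.12), skull replicate 1 in *fabp7a* (11.97), skull replicate 3 in *xaf1* (5.00) and skull replicate 4 in *b4galt3* (7.27).

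Most of the genes below were chosen on the same skull replicates that enter these contrasts, so their number and direction are a description. In 13 of the genes the level at 3 dpi after skull injury differed from that after nostril injury (limma, adjusted p under 0.05), and all 13 were lower. The differences were −0.76 in *tubb2b*, −0.68 in *cnr1*, −0.56 in *mrpl20*, −0.69 in *tsn*, −0.49 in *gpx4b*, −0.69 in *mast3b*, −0.63 in *derl2*, −1.12 in *gja1b*, −0.44 in *ndufs3*, −0.83 in *ppp3r1b*, −0.67 in *prdx2*, −0.63 in *atp5mc3b* and −0.52 in *bsg*.

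In 41 of the genes the level at 3 dpi after skull injury differed from that at 7 dpi (limma, adjusted p under 0.05). Lower at 3 dpi among genes of neurons, adhesion and the cytoskeleton were *tubb2b* (−0.65), *tuba1c* (−0.65), *pcdh2g16* (−0.96), *cnr1* (−0.85), *cadm1a* (−0.84), *elavl3* (−0.62), *ppp3r1b* (−1.10), *camk2b2* (−0.83), *chrm4a* (−0.91) and *caly* (−0.31). Lower as well were *abr* (−0.80), *gja1b* (−1.02), *cyp19a1b* (−0.54), *nrf1* (−0.57), *tsn* (−0.83), *bckdk* (−0.58), *b4galt3* (−0.58), *mast3b* (−0.78), *slc25a26* (−0.55), *derl2* (−0.73), *ndufa4a* (−0.38), *prdx2* (−0.52) and *bsg* (−0.52). Higher at 3 dpi among interferon response, antigen presentation and chemokine genes were *mxc* (2.70), *mxa* (1.23), *mxe* (1.31), *irf1b* (1.57), *xaf1* (1.25), *il4i1* (2.45), *cxcl20* (2.17), *ccl34b.1* (0.92), *psmb13a* (2.07) and *psme1* (1.15). Higher among genes of phagocytes were *laptm5* (1.59), *c1qa* (1.3), *spi1b* (1.11), *itgb2* (1.05), *mpeg1.1* (1.35) and *havcr1* (1.37), and beside these *tlr21* (1.37) and *s100b* (0.68).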

How the results depend on the processing

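None of the 74 falls and 102 rises changed sign under any alternative in which the gene was tested, but the counts moved widely. Against intact, 301 transcripts rose and 319 fell. The numbers were 1251 and 1944 with equal spread of all groups, 70 and 24 with the compared groups alone, 43 and 12 at an adjusted p under 0.01 and 511 and 602 with all probe sets in the fit, an alternative chosen after seeing the data. Falls alone moved to 511 with a weight per array, 169 after quantile and 135 after loess normalization, and 545 with trend and robust moderation. Above a 2-fold change the study's criteria gave 350 higher and 341 lower. By those criteria the split of 823 higher and 969 lower turned to 982 and 866 after quantile and 982 and 767 after loess normalization. With equal spread it was 924 and 1323. The markers called were, for microglia (9), interferon response (6) and ependymoglia (3), 20, 14 and 8 with equal spread, 4, 0 and 0 with the compared groups alone (16 and 12 of the last 2 at an unadjusted p under 0.05) and 2, 0 and 0 at an adjusted p under 0.01 (18 and 12). A weight per array gave 11 interferon response genes, and trend and robust moderation or all probe sets gave 5 ependymoglia markers.

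Against nostril injury at 3 dpi (5 higher, 42 lower), the counts were 86 and 405 with equal spread, 0 and 0 with the compared groups alone (336 and 1072 at an unadjusted p under 0.05), 24 and 93 with a weight per array, 8 and 76 with centred arrays, 19 and 158 with trend and robust moderation, 2 and 9 without a filter, 8 and 80 above a level of 50, 2 and 0 at an adjusted p under 0.01 (1836 lower at an unadjusted p under 0.05), 17 and 79 with gene means and 18 and 78 with all probe sets. Lower genes were 6 after quantile and 7 after loess normalization, and higher genes 3 with technical array 1. Against skull injury at 7 dpi (116 higher, 720 lower), they were 339 and 1499 with equal spread, 0 and 0 with the compared groups alone (580 and 1646 at an unadjusted p under 0.05) and 9 and 74 at an adjusted p under 0.01. Lower genes were 312 after quantile and 266 after loess normalization and 475 without a filter, and higher genes 176 with gene means.

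Without single replicates, transcripts that rose ranged from 39 to 504 and those that fell from 13 to 776, both lowest without skull replicate 1 and highest without skull replicate 2. By the study's criteria they ranged from 705 to 1100 and from 822 to 1300. Microglia markers ranged from 2 to 9, interferon response genes from 0 to 12 and ependymoglia markers from 0 to 5. Against nostril injury the ranges were 2 to 26 higher and 0 to 389 lower, and against 7 dpi 0 to 145 and 1 to 1144. Equal replicate numbers did not pair the samples (correlations of 0.012, −0.085, 0.065 and 0.072 between deviations of same-numbered replicates). With a replicate block 211 transcripts fell, 42 of the 74 falls and 86 of the 102 rises were kept, and 2 genes were higher and 2 lower than after nostril injury. The cause of these movements was not tested.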
